A study of Mus musculus with 24 samples.

Results

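The genes described here are 7 mouse genes whose proteins attract white blood cells to an epithelium or hold them there. They are the chemokine genes Ccl5, Ccl2, Ccl20, Cx3cl1, Cxcl16 and Cxcl17 and the adhesion ligand gene Icam1, chosen by symbol from the 25239 genes of the authors' table of normalised counts. RNA was measured by bulk sequencing in 24 cultures of primary tracheal epithelial cells, grown on inserts and differentiated at an air-liquid interface over 10 to 14 days. The mice, wild-type FVB/NJ, were 7 to 8 weeks old. There were 4 groups of 6 inserts. Female smoke and male smoke cultures met cigarette smoke over 10 days, where 1 exposure burned 2 cigarettes in about 8 minutes, and female air and male air cultures met humidified air over the same 10 days. The labels name no donors, so the p-values measure only the spread between inserts, which may be technical, and sex cannot be told apart from any other difference between the female and male preparations.

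Chemokines are small secreted proteins that draw leukocytes up a gradient through receptors on those cells. CCL5, CCL2 and CCL20 are released freely, whereas CX3CL1 and CXCL16 are made as membrane proteins that can tether a passing cell or be cut off by proteases and act at a distance. ICAM1 sits on the cell surface and binds the integrins of leukocytes that have arrived. In the airway these proteins are known from the epithelial response to infection, allergens and smoke, and several of them are target genes of NF-kappaB or of interferon signalling.

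The libraries held between 16038813 and 24485024 reads on genes, known for 23 of the 24, male smoke insert 5 being the exception. A pair of female libraries stood apart because their levels shifted with the length of a gene's transcript. The length used is that of a gene's longest transcript. In female smoke insert 4, genes of at most 1870 bases had a median log2 shift of 0.55 from the rest of the group. Genes of at least 4477 bases had one of -0.53. The shifts in female air insert 1 were 1.20 and -0.92. Of the 7 genes, Ccl5, Ccl2, Ccl20, Cxcl16 and Cxcl17 fall in the short class, with 531, 806, 802, 1692 and 760 bases. Cx3cl1 and Icam1 fall in neither class, with 3143 and 2577. All exons of Cxcl16 together span 1813 bases. Both libraries stayed in the test, and values without them are given beside the results they change most.

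After smoke, female cultures held more Ccl5 and Cxcl16 RNA and less Cx3cl1 RNA than female air cultures. Male smoke cultures held more Ccl5 RNA and less Cx3cl1 and Icam1 RNA than male air cultures. In bulk RNA, fewer cells of a type and less RNA per cell cannot be told apart. Of the 7 genes, 6 reached a mean of 10 normalised counts over the 24 libraries and entered the limma fit over 13549 genes, where an adjusted p (Benjamini-Hochberg) under 0.05 counts as called, while Ccl2 stayed below. In female smoke against female air 3 of the 6 were called, where 34.8% of all tested genes were called. In male smoke against male air 3 of the 6 were called as well, where 22.0% of all tested genes were. Ccl5 averaged 2.24 and 2.09 normalised counts in female air and male air and passed the minimum only through its smoke groups, so its call adds no support to these counts. With the 2 length-trend libraries left out, 3 of 6 were called in females, where 45.7% of all tested genes were. In males 5 of 6 were called, where Cxcl16 and Cxcl17 joined, and the share over all tested genes was 47.2% there. Male smoke and male air inserts did not overlap for 3 of the 6 genes, where 25.2% of all tested genes had no overlap. Female smoke and female air inserts overlapped for all 6, where 12.5% of all tested genes had no overlap, and without the 2 libraries Cx3cl1 and Cxcl16 had none, where 28.2% of all tested genes had none.

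**Figure D1:**
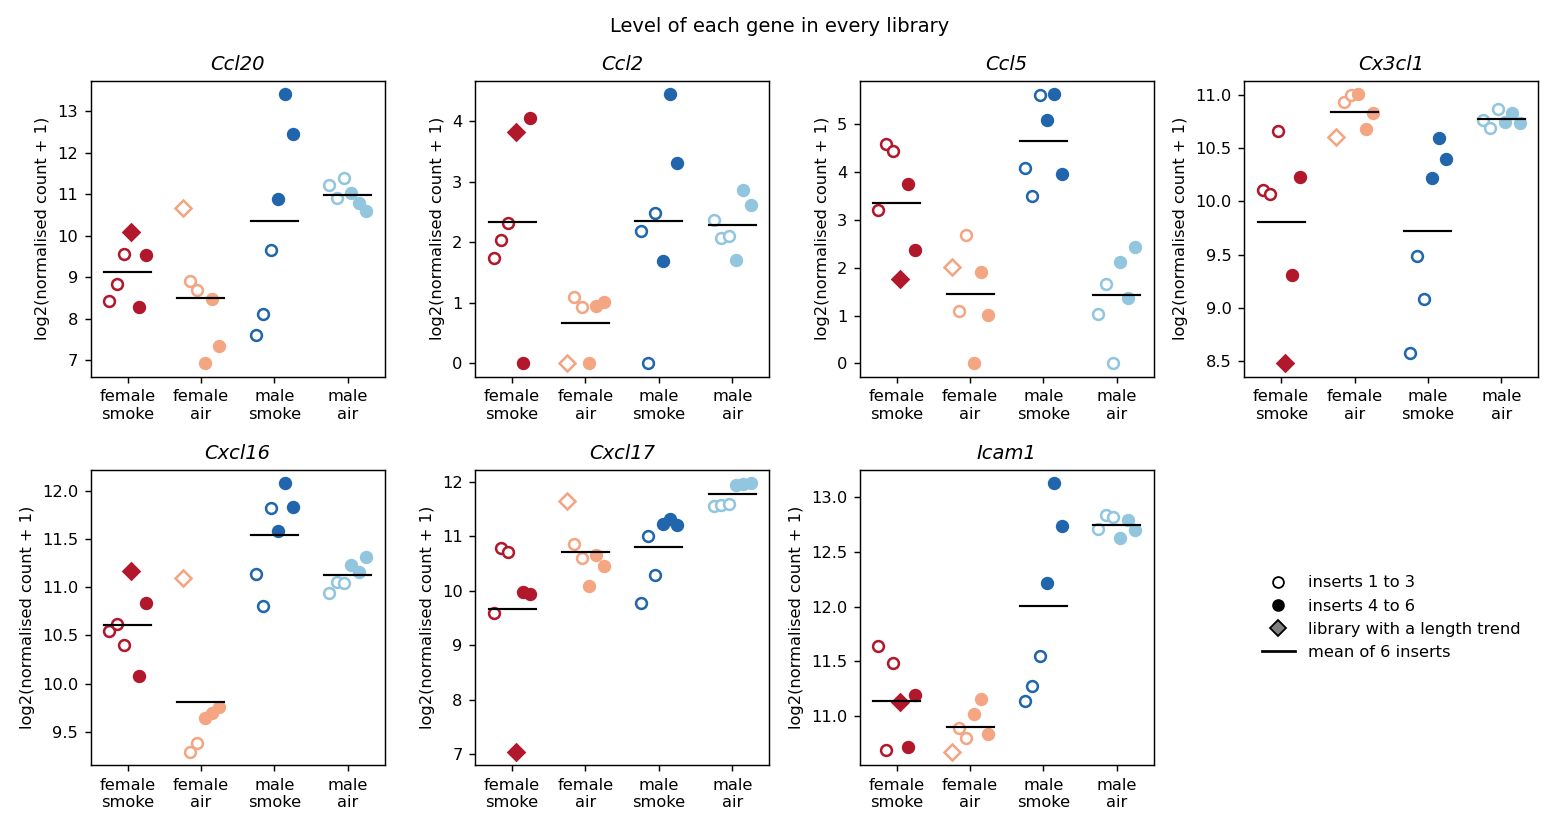
Level of each gene in every library as log2(normalised count + 1), 1 panel per gene, with open points for inserts 1 to 3, filled points for inserts 4 to 6, diamonds for the 2 libraries with a length trend and bars for group means. In males Ccl5, Cx3cl1 and Cxcl17 have no smoke insert within the range of the air inserts, and Ccl20 and Icam1 spread widely in male smoke and narrowly in male air.

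RefSeq promoter windows of GRCm38.p6 matched 3 of the 7 genes. They are shown for Icam1 and Ccl20, the members with the largest called differences between female and male air, and for Cx3cl1, which fell after smoke in both sexes. Each window holds the 250 bases before the annotated start on the plus strand, at chr9:21015690-21015939 for Icam1, chr1:83116516-83116765 for Ccl20 and chr8:94771930-94772179 for Cx3cl1. Capitals mark matches to GGAAANNCC, an NF-kappaB-like motif, or to the TATA box TATAAA, where N is any base, searched on both strands without overlap between them.
Icam1: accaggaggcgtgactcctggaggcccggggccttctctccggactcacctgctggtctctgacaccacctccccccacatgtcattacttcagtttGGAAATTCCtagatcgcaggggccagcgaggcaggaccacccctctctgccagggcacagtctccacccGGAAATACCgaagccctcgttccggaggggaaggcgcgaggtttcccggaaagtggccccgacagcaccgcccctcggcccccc
Ccl20: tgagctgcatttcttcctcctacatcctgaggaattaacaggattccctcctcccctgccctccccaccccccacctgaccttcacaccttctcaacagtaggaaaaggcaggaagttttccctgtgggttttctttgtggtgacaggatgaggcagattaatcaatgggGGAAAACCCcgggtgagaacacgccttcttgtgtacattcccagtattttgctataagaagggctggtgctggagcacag
Cx3cl1: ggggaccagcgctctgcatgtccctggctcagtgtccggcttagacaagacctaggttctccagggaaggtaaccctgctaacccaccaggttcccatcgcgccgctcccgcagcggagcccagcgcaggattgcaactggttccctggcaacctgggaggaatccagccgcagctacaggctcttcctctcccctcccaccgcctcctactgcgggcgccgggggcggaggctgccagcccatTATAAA

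The Icam1 window held GGAAATTCC at 153 to 145 bases and GGAAATACC at 84 to 76 bases before the start, and the Ccl20 window held GGAAAACCC at 80 to 72 bases before it. The Cx3cl1 window held no such match and TATAAA at 6 to 1 bases before the annotated start. GGAAANNCC occurred in 4.93% and TATAAA in 12.4% of the 32851 promoter windows of the same length. Since GGAAANNCC was picked after the 3 windows were read, its matches there were known in advance. The share over all windows therefore cannot test them. TGANTCA, an AP-1 motif found in 6.75% of all windows, and GAAANNGAA, a core of interferon-stimulated elements found in 7.13%, had no match in the 3 windows. These matches describe letters in the windows and not sites of binding.

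Ccl5 (mm10, chr11:83525779-83530518, minus strand) encodes a chemokine that draws T cells, monocytes and eosinophils. It stood at 2.40 to 22.9 normalised counts in female smoke with a median of 10.4, against 0 to 5.46 with a median of 1.96 in female air. The highest female air insert lay above the lowest pair of female smoke inserts, so the female groups overlapped. In male smoke it stood at 10.3 to 48.4 with a median of 24.6, against 0 to 4.38 with a median of 1.86 in male air, and the male groups did not overlap. These values rest on 72 reads over 6 female smoke libraries and 13 over 6 female air libraries, and on 131 reads over 5 male smoke libraries and 14 over 6 male air libraries. Ccl5 rose by 1.90 ± 0.55 (log2, SE, n = 6 per group) in female smoke (limma adjusted p = 0.00987). It rose by 3.21 ± 0.55 in male smoke (limma adjusted p = 0.00025). Each of the 6 female and 6 male smoke inserts lay above the mean of the air inserts of its sex. The fold is on the log2(normalised count + 1) scale, which understates the change of so low a gene.

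Ccl2 (chr11:82035577-82037452, plus strand) lies on the same chromosome as Ccl5 and encodes the main monocyte attractant, a ligand of CCR2. It ranged over 0 to 15.5 normalised counts in female smoke with a median of 3.56, against 0 to 1.13 with a median of 0.918 in female air. Among female smoke inserts, 5 lay above every female air insert and 1, insert 5, held no read. The sums behind this were 36 reads in 6 female smoke libraries and 4 reads in 6 female air libraries. The mean log2 difference was 1.67, with p = 0.0303 in an exact two-sided permutation test, and 1.23 with p = 0.103 in that exact test with female smoke insert 4 and female air insert 1 left out. The exact p also lay above 0.05, at 0.0563 or 0.0606, without 1 single library, which was female smoke insert 2, 3, 4 or 6 or female air insert 1 or 4. In males Ccl2 ranged over 0 to 20.8 in smoke with a median of 4.08, against 2.25 to 6.31 with a median of 3.73 in air, and the smoke inserts lay on both sides of the air inserts. The male difference was 0.06 (exact two-sided permutation test, p = 0.929).

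Ccl20 (chr1:83116766-83119167, plus strand) encodes the ligand of CCR6, which draws immature dendritic cells, B cells and Th17 cells to mucosal surfaces. It stood at 310.3 to 1091 normalised counts in female smoke with a median of 599, against 121 to 1626 with a median of 383 in female air, and the groups overlapped over most of their range. The highest female air value came from insert 1, which has the length trend. In male smoke it ran over 193 to 10807 with a median of 1351, against 1558 to 2675 with a median of 1993 in male air. The highest male smoke insert was 55.9 times the lowest, while in male air the same ratio was 1.72. Male smoke inserts 1, 2 and 3 lay below every male air insert, inserts 5 and 6 above every one, and insert 4 within their range. The differences were 0.62 ± 0.75 in females (limma adjusted p = 0.566) and -0.64 ± 0.75 in males (limma adjusted p = 0.585), so neither passed the test. The male value was -0.09 without male smoke insert 1, -0.19 without insert 2, -1.25 without insert 5 and -1.06 without insert 6. The female value was 1.05 without female air insert 1, 0.30 without insert 4 and 0.39 without insert 6.

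Cx3cl1 (chr8:94772180-94782426, plus strand) encodes fractalkine, the membrane-tethered ligand of CX3CR1 on monocytes, NK cells and T cells. It stood at 356 to 1612 normalised counts in female smoke with a median of 1084, against 1556 to 2048 with a median of 1881 in female air. The female groups met at 1 pair of inserts, since female smoke insert 3 lay above female air insert 1. In male smoke it stood at 379.8 to 1541 with a median of 954, against 1646 to 1862 with a median of 1722 in male air, with no overlap. The air inserts were close to each other in both sexes, while the smoke inserts differed by up to 4.53 times in females and 4.06 times in males. Cx3cl1 fell by 1.03 ± 0.31 in female smoke (limma adjusted p = 0.0124). It fell by 1.04 ± 0.31 in male smoke (limma adjusted p = 0.0181), and all 12 smoke inserts lay below the mean of their air inserts. The male call was lost without male smoke insert 1 (-0.81, limma adjusted p = 0.0587) or insert 3 (-0.91, limma adjusted p = 0.0521). Without the 2 libraries with a length trend the female difference was -0.81 (limma adjusted p = 0.0258) and the female groups no longer overlapped.

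The median difference over 10 markers of motile cilia had the same sign as that of Cx3cl1, at -2.52 in female smoke and -1.25 in male smoke. Their summed level over 10 genes was 3085 to 16655 in female smoke, against 15533 to 28946 in female air, and 2508 to 6581 in male smoke, against 5291 to 9026 in male air. In female smoke 10 of the 10 were called lower, where 34.8% of all tested genes were called in either direction. In male smoke 2 of the 10 were called lower, near the 22.0% called among all tested genes. Once both length-trend libraries were left out, 10 of the 10 were called lower in females and 6 of the 10 in males. The shares over all tested genes were then 45.7% and 47.2%. The part of the cilia markers in the Cx3cl1 result was not tested.

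Cxcl16 (chr11:70454389-70459984, minus strand) encodes the other tethered chemokine of the set, a ligand of CXCR6 on T cells and NKT cells that also takes up oxidised lipids as a scavenger receptor. It stood at 1082 to 2300.3 normalised counts in female smoke with a median of 1529.9, against 624 to 2185 with a median of 813 in female air. Of the female air inserts, 5 lay between 624 and 863, below every female smoke insert, and the exception was insert 1. In male smoke it stood at 1787 to 4340.4 with a median of 3353, against 1968 to 2553 with a median of 2207 in male air. Male smoke inserts 3 to 6 lay above every male air insert and insert 2 below every one. Cxcl16 rose by 0.80 ± 0.25 in female smoke (limma adjusted p = 0.0154), higher in 6 of 6 inserts than the mean of the air inserts. The female call held without the 2 libraries with a length trend, at 0.94 (limma adjusted p = 0.000511), and was lost in a fit of the female groups alone (limma adjusted p = 0.0614) and with edgeR on recovered reads (0.66, adjusted p = 0.0568). The male difference was 0.42 ± 0.25 (limma adjusted p = 0.239). It was called at the same size without the 2 female libraries (limma adjusted p = 0.0459), since all groups share 1 estimate of the spread.

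Cxcl17 (chr7:25400053-25412886, minus strand) encodes a mucosal chemokine of airway epithelium that draws myeloid cells. It stood at 131 to 1758 normalised counts in female smoke with a median of 994, against 1079.8 to 3181 with a median of 1577 in female air. Female smoke insert 4 was far below the other female smoke inserts, of which the lowest stood at 764, and female air insert 1 was far above the other female air inserts. In male smoke it stood at 870.1 to 2552 with a median of 2202, against 3011 to 4009 with a median of 3504 in male air. Every male smoke insert lay below every male air insert. The differences were -1.04 ± 0.43 in females (limma adjusted p = 0.0669) and -0.97 ± 0.43 in males (limma adjusted p = 0.116), so neither passed. The female value was -0.51 without female smoke insert 4 and -0.33 (limma adjusted p = 0.319) with female air insert 1 left out as well. It passed without female smoke insert 2 (-1.26, limma adjusted p = 0.0288) or insert 3 (-1.25, limma adjusted p = 0.0315). The male difference, the same in size, passed in a fit of the male groups alone (limma adjusted p = 0.00643) and with the 2 female libraries left out (limma adjusted p = 0.00300).

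Icam1 (chr9:21015940-21028814, plus strand) encodes the ligand of the integrins LFA-1 and Mac-1, through which leukocytes adhere to and cross cell layers. It stood at 1659 to 3183 normalised counts in female smoke with a median of 2288, against 1634 to 2287 with a median of 1863 in female air, and 3 female smoke inserts lay within the female air range. In male smoke it stood at 2253 to 8935 with a median of 3877, against 6322 to 7288 with a median of 6894 in male air. Male smoke inserts 1 to 4 lay below every male air insert, insert 5 above every one and insert 6 among them. The female difference was 0.25 ± 0.25 (limma adjusted p = 0.489). Icam1 fell by 0.74 ± 0.25 in male smoke (limma adjusted p = 0.0376). This call was lost in 8 of the 12 fits without a single male library, at adjusted p = 0.0598, 0.0678, 0.0687, 0.0638 and 0.0554 without male air insert 1, 2, 3, 5 or 6 and 0.116, 0.0991 and 0.0953 without male smoke insert 1, 2 or 3 (limma). It was also lost in a fit of the male groups alone (limma adjusted p = 0.056).

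**Figure D2:**
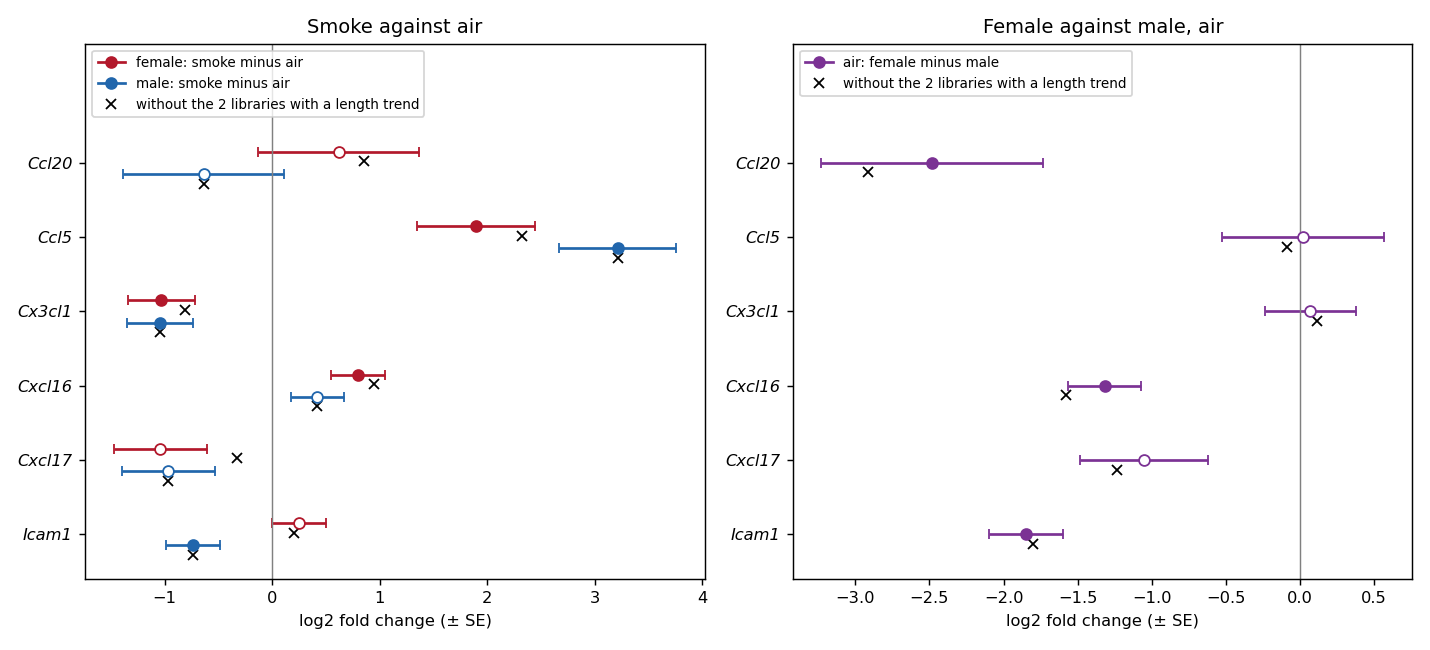
Difference in log2(normalised count + 1) with its SE for the 6 tested genes, smoke minus air in females (red) and males (blue) on the left and female minus male air (purple) on the right, filled where the limma adjusted p is under 0.05, with a cross for the value without the 2 libraries with a length trend. Ccl5 lies at 1.90 and 3.21 and Cx3cl1 at -1.03 and -1.04 in females and males, and no gene lies above 0.07 in female minus male air.

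The female and male smoke responses were set against each other as the female difference minus the male difference. The limma fit called 0 of the 6 genes, where 1.03% of all tested genes were called, and 1 of the 6, Icam1, had an unadjusted p under 0.05. For Icam1 the value was 0.98 ± 0.36 (limma adjusted p = 0.203, unadjusted 0.011). On recovered reads edgeR called 0 of the 6, with Icam1 at 1.09 (adjusted p = 0.0829), where it called 1.16% of all tested genes. DESeq2 called 1, Icam1 at 1.11 (adjusted p = 0.0223), where it called 3.84% of all its tested genes. For Ccl5 the limma value was -1.32 ± 0.77 (limma adjusted p = 0.516), with an interval of 2 SE on each side from -2.86 to 0.23. For Cx3cl1 it was 0.01 ± 0.44 with an interval of -0.86 to 0.89, which leaves room for a difference in either direction. The intervals were -0.86 to 3.37 for Ccl20, -0.32 to 1.08 for Cxcl16 and -1.30 to 1.15 for Cxcl17.

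In air, female cultures held less Icam1, Ccl20 and Cxcl16 RNA than male cultures, and no member was called higher in females. These 3 of 6 genes were called, where 39.0% of all tested genes were called. Icam1 averaged 1919 ± 231 normalised counts in female air and 6878 ± 376 in male air (SD, n = 6 each), a difference of -1.85 ± 0.25 (limma adjusted p = 3.37e-06). No female air insert reached the lowest male air insert, at 6322. Ccl20 averaged 527 ± 557 in female air and 2063 ± 414 in male air (SD, n = 6 each), a difference of -2.48 ± 0.75 (limma adjusted p = 0.0111). Only female air insert 1 reached the male range, and without it and female smoke insert 4 the difference was -2.91. Cxcl16 averaged 993 ± 591 in female air and 2243 ± 215 in male air (SD, n = 6 each), a difference of -1.32 ± 0.25 (limma adjusted p = 0.000183). Here too only female air insert 1 overlapped male air.

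Cxcl17 averaged 1777 ± 733 normalised counts in female air and 3506 ± 512 in male air (SD, n = 6 each), a difference of -1.05 ± 0.43 that did not pass (limma adjusted p = 0.0586). It passed without female air insert 1 (-1.24, limma adjusted p = 0.0282), and when female smoke insert 4 was left out too (-1.24, limma adjusted p = 0.000335). Cx3cl1, at 1839.8 ± 209.7 in female air and 1744 ± 79.9 in male air (SD, n = 6 each), differed by 0.07 ± 0.31, and Ccl5 by 0.02 ± 0.55. Ccl2 was lower in every female air insert than in every male air insert, with 4 reads over 6 female air libraries and 27 over 6 male air libraries. The mean difference was -1.62, with p = 0.00216 in an exact two-sided permutation test, the smallest that the 924 arrangements allow. Of the 6 tested genes only Icam1 had no overlap between the sexes in air, where 33.2% of all tested genes had none. Without female air insert 1, Ccl20, Cxcl16, Cxcl17 and Icam1 had none, where 48.1% of all tested genes had none.

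Inserts 1 to 3 and inserts 4 to 6 of a group did not overlap for 4 of the 6 tested genes in male smoke, where 33.2% of all tested genes had no overlap. The count was 2 in male air (33.5% of all tested genes), 0 in female smoke (16.3%) and 1 in female air (34.9%). The labels give the insert numbers no meaning beyond a count. Ccl20 ran over 193 to 799.6 normalised counts in male smoke inserts 1 to 3 and 1902 to 10807 in inserts 4 to 6. Icam1 ran over 2253 to 3004 in inserts 1 to 3 and 4751 to 8935 in inserts 4 to 6. Cx3cl1 and Cxcl17 likewise had no overlap between the sets of 3, while Ccl5 and Cxcl16 overlapped. In male air Cxcl17 ran over 3011 to 3089 in inserts 1 to 3 and 3919 to 4009 in inserts 4 to 6, and Cxcl16 over 1968 to 2120 and 2295 to 2553. In female air Ccl20 ran over 412 to 1626 in inserts 1 to 3 and 121 to 354 in inserts 4 to 6. Set against male air inserts 1 to 3 alone, male smoke inserts 1 to 3 gave -2.72 for Ccl20 (limma adjusted p = 0.00939), -1.46 for Icam1 (0.00182), -1.72 for Cx3cl1 (0.00112) and -1.22 for Cxcl17 (0.0472). Set against male air inserts 4 to 6, inserts 4 to 6 gave 1.44 for Ccl20 (limma adjusted p = 0.213), -0.01 for Icam1 (0.985), -0.36 for Cx3cl1 (0.611) and -0.71 for Cxcl17 (0.588). Ccl5 was called in each male set, at 3.50 (limma adjusted p = 0.00625) and 2.92 (0.0278). With inserts 1 to 3 alone 5 of the 6 genes were called in males, where 18.5% of all tested genes were.

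In females the sets of 3 gave -0.48 in inserts 1 to 3 (limma adjusted p = 0.575) and 1.72 in inserts 4 to 6 (limma adjusted p = 0.0431) for Ccl20. For Cx3cl1 they gave -0.57 (limma adjusted p = 0.151) and -1.49 (0.0045), the opposite order to males. Ccl5 lost its female call in both sets, at 2.14 (limma adjusted p = 0.0879) in inserts 1 to 3 and 1.65 (0.0657) in inserts 4 to 6. The difference between the sets was not itself tested. The 15 tested NF-kappaB genes described further on had a median of -0.30 in male inserts 1 to 3 and 0.42 in male inserts 4 to 6. With inserts 1 to 3 alone, 0 rose and 1 fell, where 18.5% of all tested genes were called. With inserts 4 to 6 alone, 5 rose and 0 fell, where 6.87% of all tested genes were called. Their part in the Ccl20 and Icam1 values was not tested.

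**Figure D3:**
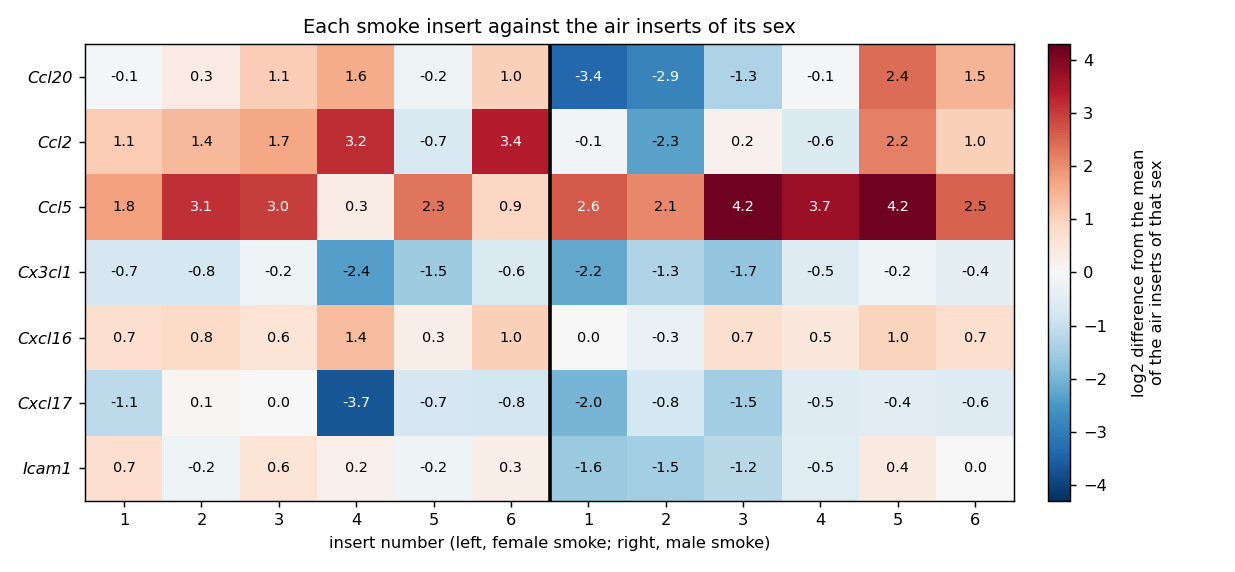
Difference in log2(normalised count + 1) of each smoke insert from the mean of the 6 air inserts of its sex, female smoke in the left 6 columns and male smoke in the right 6, red above and blue below the air mean. The Ccl5 line is red and the Cx3cl1 line blue in all 12 columns, and the Ccl20 line is blue in male inserts 1 to 4 and red in male inserts 5 and 6.

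Levels of different genes are compared here per kilobase of exon. In female smoke Cxcl17 was the highest at 1384 ± 793 normalised counts per kilobase (SD, n = 6), followed by Icam1 at 904, Cxcl16 at 884, Ccl20 at 769, Cx3cl1 at 317, Ccl5 at 22.3 and Ccl2 at 7.90 per kilobase. Only the step between Cx3cl1 and Ccl5 had no overlap between inserts. In female air the order was Cxcl17 at 2338 ± 965 (SD, n = 6), Icam1 at 745, Ccl20 at 657, Cx3cl1 at 585, Cxcl16 at 548, Ccl5 at 4.22 and Ccl2 at 0.825 per kilobase. There Cxcl17 stood clear of Icam1 and Cxcl16 clear of Ccl5, and the other neighbours overlapped. The place of Ccl20 rests on female air insert 1, which has the length trend and held it at 2028 per kilobase. In the other female air inserts Ccl20 ran over 151 to 603 per kilobase and lay below Cx3cl1 in every one. Cxcl16 stood at 1205 per kilobase in insert 1 and at 344 to 476 in the others.

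In male smoke Ccl20 averaged 4061 ± 5245 per kilobase (SD, n = 6), an SD above its mean, followed by Cxcl17 at 2511, Icam1 at 1827, Cxcl16 at 1723, Cx3cl1 at 303, Ccl5 at 53.5 and Ccl2 at 8.28. The first 4 of these overlapped as neighbours. In male air the order was Cxcl17 at 4613 ± 674 (SD, n = 6), Icam1 at 2669, Ccl20 at 2572, Cxcl16 at 1237, Cx3cl1 at 555, Ccl2 at 5.03 and Ccl5 at 3.93 per kilobase. There Icam1 and Ccl20 overlapped, as did Ccl2 and Ccl5, and the other neighbours did not. In all 4 groups the pair of Ccl5 and Ccl2 lay lowest, each at or under 53.5 per kilobase on average.

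The receptors of these proteins are known from leukocytes, and Cx3cr1, Ccr6 and Cxcr6 were near 0 in the cultures while Itgam was not. Of 13 receptor and integrin genes 5 were tested. Cx3cr1, the receptor of CX3CL1, had no read in female smoke, female air and male air and at most 3.53 normalised counts in male smoke. Ccr6, the receptor of CCL20, stayed at or below 2.27 in every library, and Cxcr6, the receptor of CXCL16, at or below 6.18. Ccr2, the receptor of CCL2, had medians of 46.9 in female smoke, 44.2 in female air, 47.6 in male smoke and 24.4 in male air, with no call for smoke in either sex. Gpr35, proposed as a receptor of CXCL17, fell by 1.55 ± 0.48 in female smoke (limma adjusted p = 0.0149), with medians of 39.5 in female smoke and 91.6 in female air, and its male medians were 3.51 in smoke and 2.75 in air.

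Among the integrins that bind ICAM1, Itgal, the alpha chain of LFA-1, fell by 2.89 ± 0.67 in female smoke (limma adjusted p = 0.00227), at 2.40 to 92.8 in female smoke and 108 to 270.1 in female air. Itgb2, the beta chain shared by LFA-1 and Mac-1, rose by 1.73 ± 0.50 in female smoke (limma adjusted p = 0.00949) and by 1.97 ± 0.50 in male smoke (limma adjusted p = 0.00652), with group means of 21.6 in female smoke, 7.94 in female air, 37.8 in male smoke and 8.17 in male air. It passed the minimum only through its smoke groups, so these calls support nothing, as for Ccl5. Itgam, the alpha chain of Mac-1, had medians of 2098 in female smoke, 1294 in female air, 149 in male smoke and 30.0 in male air. It rose by 2.61 ± 0.43 in male smoke (limma adjusted p = 0.000193) and was at 0.87 ± 0.43 in female smoke without a call (0.124). The receptor list had 1 gene up and 2 down in females and 2 up and 0 down in males, where 34.8% and 22.0% of all tested genes were called. With the 2 length-trend libraries left out 3 were up and 0 down in males, where 47.2% were called. Itgb2 is the gene up in females and 1 of the 2 up in males, so the counts up are no support. The median difference of the list, Itgb2 included, was -0.24 in females, or 0.45 without the 2 libraries with a length trend, and 1.33 in males. The median over all tested genes was -0.0026 in females and -0.0058 in males.

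Leukocyte markers were checked because the genes described act on those cells. Ncr1, Nkg7 and Tyrobp had no read in any group, and Ptprc, the marker CD45 of all leukocytes, stayed at or below 8.31 normalised counts in every library. Of 20 leukocyte markers 5 were tested, of which 1 rose and 1 fell in female smoke and 2 rose in male smoke. Over all tested genes the shares called were 34.8% and 22.0%. Their summed level was 6922 to 13074 in female smoke, 6258 to 12752 in female air, 4502 to 21894 in male smoke and 10538 to 11765 in male air. Most of it was Cd14, a lipopolysaccharide co-receptor also made by epithelium, with medians of 7264 in female smoke, 4651 in female air, 11934 in male smoke and 11017 in male air. Laptm5, a lysosomal protein of blood cells, had medians of 254 in female smoke, 388 in female air, 1.91 in male smoke and 3.61 in male air, without a call for smoke. Cd68, a lysosomal protein rich in macrophages, rose by 0.77 ± 0.24 in female smoke and by 1.53 ± 0.24 in male smoke (limma adjusted p = 0.0159 and 0.000106). Csf1r fell by 1.67 ± 0.38 in female smoke (limma adjusted p = 0.00189). The epithelial label fitted its markers, since none of the 10 airway epithelial genes was at 0 throughout a group. Their sum ran over 157882 to 340186 in the 24 libraries. Muc5b had a minimum of 0 and a median of 28.2 in female smoke.

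Fibroblast markers were lower in smoke, with a sum over 8 genes of 22.8 to 159.5 in female smoke, 291 to 1509 in female air, 29.7 to 97.0 in male smoke and 169 to 429.6 in male air. Dcn fell by 4.52 ± 0.80 in female smoke and by 4.37 ± 0.80 in male smoke (limma adjusted p = 0.00029 and 0.000511), and Postn fell by 2.63 ± 0.51 in female smoke and fell by 1.46 ± 0.51 in male smoke. Endothelial markers summed to at most 63.5, of which Vwf was tested and fell by 2.32 ± 0.49 in female smoke. Of the airway epithelial markers Scgb1a1, the club cell secretoglobin, fell by 3.09 ± 0.85 and Foxj1, the regulator of ciliated cells, fell by 2.51 ± 0.85 in female smoke, and Krt5, a basal cell keratin, rose by 1.06 ± 0.19 in female smoke and by 0.65 ± 0.19 in male smoke (limma adjusted p = 0.000318 and 0.0172). Of the 10 airway epithelial markers 1 rose and 3 fell in females and 1 rose and 0 fell in males. With the 2 length-trend libraries left out these counts were 2 and 4 in females and 3 and 0 in males. Over all tested genes the shares called were 34.8% in females and 22.0% in males, or 45.7% and 47.2% without those libraries. The cilia genes named by size were Dnah5 at -3.43 ± 1.06 and Dnah9 at -3.36 ± 1.09 in females and Gmnc at -3.13 ± 0.64 and Mcidas at -2.81 ± 0.73 in males. The part of these markers in the values of the 7 genes was not tested.

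Other chemokine genes gave a wider picture than the 6 chemokines chosen. Of 14 other CXC and C chemokine genes 7 were tested. In female smoke 6 rose and 0 fell, and in male smoke 4 rose and 1 fell, with medians of 3.24 and 1.75. Of all tested genes 34.8% were called in females and 22.0% in males. Without the 2 libraries with a length trend the counts of this list were the same. There 45.7% and 47.2% of all tested genes were called. Cxcl10, which draws T cells through CXCR3 and is induced by interferon, rose by 3.50 ± 0.74 in female smoke (limma adjusted p = 0.0012) and by 2.18 ± 0.74 in male smoke (limma adjusted p = 0.0374). The neutrophil attractants Cxcl1 and Cxcl2 rose by 2.60 ± 0.60 and 3.24 ± 0.87 in female smoke, and were at 0.33 ± 0.60 and 0.52 ± 0.87 in male smoke without a call. The tests of the difference between the sexes gave 2.27 ± 0.85 for Cxcl1 (limma adjusted p = 0.223) and 2.71 ± 1.24 for Cxcl2 (0.344). Cxcl3 and Ppbp differed between the responses, at 2.88 ± 0.67 (limma adjusted p = 0.0367) and -3.64 ± 0.61 (0.00451).

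Of 18 other CC chemokine genes 5 were tested. In females 1 rose and 2 fell, and in males 0 rose and 0 fell, where 34.8% and 22.0% of all tested genes were called. Without the 2 libraries with a length trend 1 rose and 1 fell in males, where 47.2% of all tested genes were called. In males 2 of the 5 had an unadjusted limma p under 0.05, and edgeR called 0 there too. Ccl6, a chemokine of rodents, rose by 2.05 ± 0.58 in female smoke (limma adjusted p = 0.00898), at 11.98 to 224 normalised counts in female smoke and 5.46 to 19.8 in female air. Ccl27a and Ccl25, epithelial attractants of lymphocytes, fell by 1.27 ± 0.28 and 1.19 ± 0.27 in female smoke (limma adjusted p = 0.00166 and 0.00215). For Ccl25 the responses differed between the sexes, by -1.82 ± 0.38 (limma adjusted p = 0.0203). Ccl28, the mucosal chemokine of IgA-producing cells, was at -1.11 ± 0.48 in females and -0.18 ± 0.48 in males without a call.

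**Figure D4:**
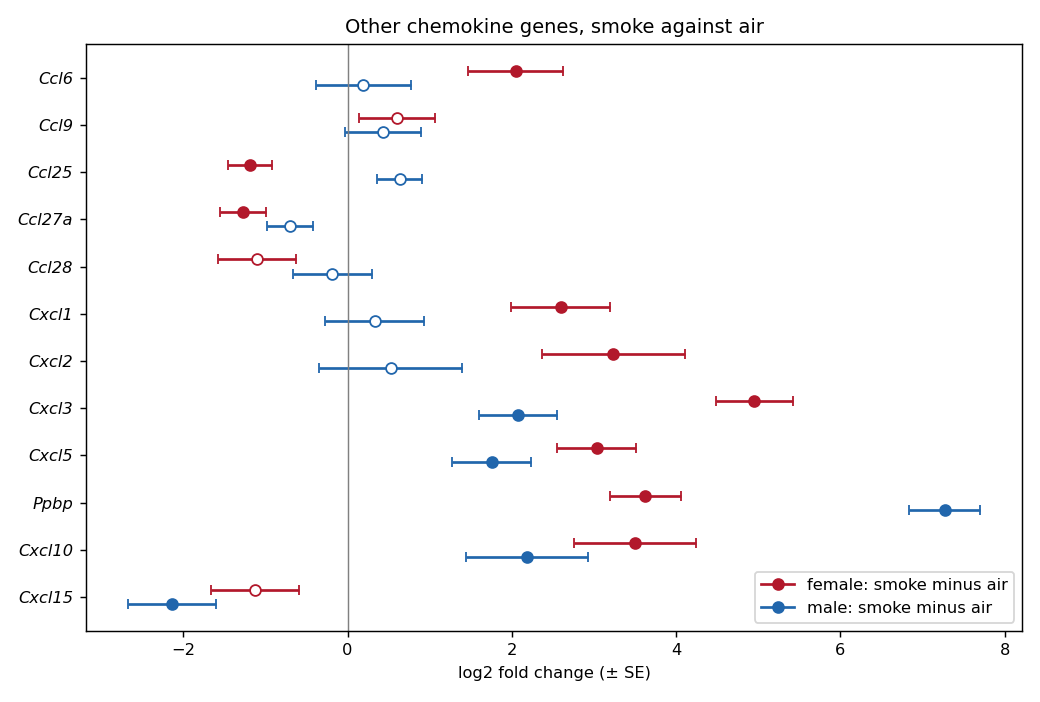
Difference in log2(normalised count + 1), smoke minus air, with its SE for the 12 other chemokine genes that were tested, in females (red) and males (blue), filled where the limma adjusted p is under 0.05. The CXC genes from Cxcl1 to Cxcl10 lie at 2.60 or more in females, and Cxcl1 and Cxcl2 lie under 0.53 in males.

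Of 20 other adhesion ligands 13 were tested. In female smoke 3 rose and 6 fell, and in male smoke 3 rose and 3 fell, where 34.8% and 22.0% of all tested genes were called. Without the 2 libraries with a length trend 2 rose and 6 fell in females and 4 rose and 5 fell in males. There 45.7% and 47.2% of all tested genes were called. Vcam1, the ligand of the integrin VLA-4, fell by 1.58 ± 0.36 in female smoke and by 2.16 ± 0.36 in male smoke (limma adjusted p = 0.00198 and 0.000197). It stood at 59.3 to 126 normalised counts in female smoke, 242 to 336 in female air, 68.0 to 634 in male smoke and 529.8 to 921 in male air. The junctional adhesion molecules Jam2 and Jam3 fell by 2.40 ± 0.27 and 2.76 ± 0.50 in female smoke, and Podxl rose by 1.93 ± 0.56 in male smoke and fell by 1.95 ± 0.56 in female smoke.

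The proteases that release CX3CL1 and CXCL16 from the membrane are ADAM10 and ADAM17. Adam10 was at 0.18 ± 0.12 in females and 0.12 ± 0.12 in males and Adam17 at 0.16 ± 0.14 and 0.07 ± 0.14, without a call. Of 10 tested sheddase genes and regulators 2 rose and 2 fell in female smoke and 1 rose and 2 fell in male smoke, and with the 2 length-trend libraries left out these counts were 2 and 3 in females and 2 and 2 in males. The shares called in this list, 4 of 10 in females and 3 of 10 in males, lie near the 34.8% and 22.0% of all tested genes and say nothing particular about it. Without the 2 length-trend libraries 45.7% and 47.2% of all tested genes were called. Adam8, a membrane metalloproteinase, rose by 0.83 ± 0.17 in female smoke and by 1.56 ± 0.17 in male smoke (limma adjusted p = 0.00105 and 2.79e-06). Mmp7 fell by 1.66 ± 0.45 in female smoke, and Timp3, an inhibitor of ADAM17, fell by 1.14 ± 0.19 in male smoke (limma adjusted p = 0.00659 and 0.000197).

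Of 15 tested NF-kappaB subunits and feedback targets 7 rose and 0 fell in female smoke, with a median of 0.54. In male smoke 0 rose and 1 fell, with a median of 0.10. Of all tested genes 34.8% were called in females and 22.0% in males. Without the 2 libraries with a length trend the counts were 6 and 0 in females and 1 and 3 in males. There 45.7% and 47.2% of all tested genes were called, so in that setting the list was not called more often than genes at large. Tnfaip3, the feedback inhibitor A20, rose by 1.40 ± 0.34 and Nfkbiz, a co-activator, by 1.30 ± 0.26 in female smoke (limma adjusted p = 0.00306 and 0.000731), while Nfkbie fell by 0.77 ± 0.26 in male smoke (limma adjusted p = 0.0349). Of 10 interferon-linked genes, 7 rose in female smoke and 5 in male smoke and 0 fell in either. Of all tested genes 34.8% were called in females and 22.0% in males. Without the 2 libraries with a length trend 9 rose in females, and 6 rose and 1 fell in males, where 45.7% and 47.2% were called. The list holds genes that interferon induces, Isg15 and Ifit3 among them, and its part in the Ccl5 values was not tested. Isg15 rose by 3.18 ± 0.50 in female smoke and by 2.56 ± 0.50 in male smoke, and Ifit3 by 3.93 ± 0.62 and 1.77 ± 0.62 (limma adjusted p for Ifit3 in males 0.0443).

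Of 16 cytokine genes, of which some are known to induce epithelial chemokines, 7 were tested. In female smoke 6 rose and in male smoke 3, and 0 fell in either, where 34.8% and 22.0% of all tested genes were called. Without the 2 libraries with a length trend 4 rose in each sex, where 45.7% and 47.2% were called. Their part in the chemokine values was not tested. Il17c and Csf2 averaged under 10 in both air groups and passed the minimum only through smoke, so these counts are no support. Il1a rose by 4.63 ± 0.39 in female smoke and by 3.42 ± 0.39 in male smoke, and Csf3 by 3.25 ± 0.49 and 2.61 ± 0.49. Of the 2 tested atypical receptors, which take up chemokines without signalling, Ackr3 was at -0.24 ± 0.17 in females and -0.33 ± 0.17 in males and Ccrl2 at -0.20 ± 0.36 and -0.55 ± 0.36, without a call.

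Genes with the most similar pattern were taken as those with the smallest root mean square difference from a member over the 24 libraries, each gene centred on its own mean on the log2 scale. For Ccl5, whose own root mean square deviation was 1.62, these were Rsad2 at 0.775, Rtp4 at 0.865 and Mx2 at 0.879. For Cx3cl1, at 0.735 itself, they were Catspere2 at 0.270, Cc2d2a at 0.279 and Spata13 at 0.287. For Cxcl16, at 0.769 itself, they were Mal2 at 0.368, Bax at 0.411 and Mgat4b at 0.421. For Icam1, at 0.844 itself, they were H6pd at 0.326, Il10rb at 0.389 and Tango6 at 0.391.

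The authors' deposited table for females gave 1.91 for Ccl2 (adjusted p = 0.0103), 1.80 for Ccl5 (0.00625), -0.84 for Cx3cl1 (0.0152) and 0.65 for Cxcl16 (0.101), with the sign turned here to smoke minus air. In the authors' deposited table for males Cxcl17 was at -0.80 (adjusted p = 0.000991), Cxcl16 at 0.47 (0.0241), Icam1 at -0.47 (0.134) and Ccl20 at 0.34 (0.527). So Cxcl17 and Cxcl16 in males passed in the authors' deposited table and not in the limma fit, and Icam1 in males and Cxcl16 in females did the reverse. For Ccl20 in males the authors' deposited table and the limma fit differed in sign, and neither called it. The authors' deposited table for air gave -1.81 for Ccl20 (adjusted p = 0.000301), -1.15 for Cxcl16 (0.000138), -0.98 for Cxcl17 (8.93e-05) and -1.85 for Icam1 (2.49e-89), with the sign turned to female minus male.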

How the data were processed

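The starting values were a table of normalised counts with 1 column per library, a signal scaled by the authors' DESeq2 run. Within a tolerance of 0.001 reads, wider for high counts, 100.0% of the values of each of the 24 columns were whole multiples of 1 step. Dividing by that step gave whole reads for 23 columns. Male smoke insert 5, whose step was too near 1 to tell, was left out of count tests. Per the submitters' processing notes the builds were GRCm38 and mm10 and the tools HTSeq, DESeq2, Trimmomatic 0.38.0 and FastQC 0.11.9. Aligner and strandedness: not given in the sources used here. Libraries, per the labels, came from total RNA with a NEBNext Ultra II kit.

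The authors also deposited DESeq2 tables of smoke and air in each sex and of the sexes in air. Per the file headers they hold log2 fold changes with a standard error, a Wald statistic, which is a score, p-values and adjusted p-values. Gene positions in the deposited tables are on mm10 and are classed as other. These tables run in the opposite direction, so the sign was turned.

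Genes with a mean of at least 10 were tested as log2(normalised count + 1), which kept 13549 of 25239. limma 3.58.1 in R 4.3.3 fitted all 24 libraries with 1 term per group, eBayes with a mean-variance trend and two-sided contrasts, with Benjamini-Hochberg adjustment over all tested genes. Ccl2, below the minimum, was tested with an exact permutation test in SciPy 1.17.1. The fit was tested on simulated data. Reads carry no molecular identifiers, so read sums show counting error only.

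The 7 genes and the 14 gene lists were chosen with earlier results of these data known. The rule for named genes takes the 7 genes, up to 2 called genes per list and sex with the largest change, and the 3 genes nearest in pattern to each called member with a mean of at least 50. Other genes named from the lists, such as Gpr35, Laptm5, Cxcl1, Cxcl2, Ccl25, Ccl28 and Adam10, were picked after their values were seen, as was the motif GGAAANNCC after the windows were read.

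The alternatives were other scalings, pseudocounts of 0.5 and 5, no minimum and a mean of at least 50, only the groups compared, inserts 1 to 3 or 4 to 6 alone, the insert number as a block, each library left out, the 2 libraries with a length trend left out, and edgeR 4.0.16 and DESeq2 1.42.0 on recovered reads. On recovered reads edgeR called 4678 genes in female smoke, 3094 in male smoke, 157 in the difference of the responses and 5574 in air, and DESeq2 5186, 3785, 506 and 5983. The list counts under alternatives were added after seeing the data.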

Additional observations from a re-analysis of the deposited data

Results flagged for a closer look

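In 28 sets of 6 libraries, 7 genes in 4 groups, the highest and the lowest library were compared with their neighbours. The comparison used log2(normalised count + 1), and on that scale 2 sets had a library far from the rest. Chance alone flags about 1 in 20 such sets. For Cxcl16 in female air, insert 1 at 2185 normalised counts was the highest. Its gap to the next library took 0.741 of the group's range on the log2 scale. For Cxcl17 in female smoke, insert 4 at 131 normalised counts was the lowest, and its gap took 0.679 of the range on the log2 scale. These are the 2 libraries in which gene levels moved with transcript length. Their part in these values was not tested.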

How the results depend on the processing

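Cx3cl1 in females kept its call under every scaling, pseudocount and count test and without any single library. It lost that call in inserts 1 to 3 alone (limma adjusted p = 0.151). Ccl5 kept its call in both sexes under every scaling, pseudocount and count test and without any single library. But Ccl5 entered the test only through its smoke groups and was not tested at a mean of at least 50. It lost its female call in inserts 1 to 3 or 4 to 6 alone. Of 742 values over 27 single-gene results, 39 changed sign, 32 lost and 16 gained a call. The limma fit called 4713 genes in female smoke, 2979 in male smoke, 140 in the difference of the responses and 5282 in female against male air. With only the groups compared, female smoke had 2857 genes and male smoke 6148. With inserts 1 to 3 alone, female smoke had 656 genes and 0 members, male smoke 2507 genes and 5 members, the difference of the responses 40 genes and 1 member, and air 2859 genes and 1 member. With inserts 4 to 6 alone, male smoke had 931 genes and 1 member, and the difference of the responses 637 genes. Without the 2 libraries with a length trend, male smoke had 6398 genes and 5 members, and the difference of the responses 840 genes. That difference had 212 genes with quantile scaling and 506 genes and 1 member with DESeq2. The causes were not tested.

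Leaving out 1 library gave 4149 to 6243 genes and 3 to 4 members in female smoke, 2110 to 2966 genes and 1 to 3 members in male smoke, 75 to 431 genes and 0 members in the difference of the responses, and 4685 to 6067 genes and 3 to 4 members in air. Male smoke insert 1 or 3 left 1 member, Icam1 and Cx3cl1 being lost, and the difference of the responses had 431 genes without female air insert 1. In air, 51.4% of called genes were higher in females, 43.8% with quantile scaling and 38.1% with scaling to the library total, under which the median difference of all genes was -0.11. The sign changed for Ccl20 in females (-0.48 in inserts 1 to 3) and in males (1.44 in inserts 4 to 6), and for Ccl2 in males (-0.0503 at a pseudocount of 0.5, -0.63 in inserts 1 to 3, -0.36 to 0.53 without 1 library). It changed for Ccl5 in air (-0.0666 with the library total, -0.61 with quantile scaling, -0.997 in inserts 4 to 6, -0.0904 without the 2 libraries, -0.27 to 0.31 without 1 library) and for Cx3cl1 in air (-0.0647 with the library total). In the difference of the responses it changed for Cx3cl1 (-0.00457 with the library total, -0.0136 with quantile scaling, -1.13 in inserts 4 to 6, -0.22 to 0.28 without 1 library) and for Cxcl17 (0.55 in inserts 1 to 3, 0.64 without the 2 libraries, 0.20 with edgeR, 0.22 with DESeq2, -0.30 to 0.45 without 1 library).

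The deviations of same-numbered inserts correlated at -0.21 to 0.37 in females, over 0.1 in 5 of 6 pairs, and at -0.24 to 0.12 in males, over 0.1 in 2 of 6. Since not every pair passed 0.1 the numbers were not taken to pair the samples, and 3 of 12 matched their own number best. With the insert number as a replicate block the fit called 4534 genes in female smoke, 2798 in male smoke, 112 in the difference of the responses and 5202 in air, and no call among the 6 genes in that fit changed. Depth limits Ccl2 and Ccl5 most, since female air held 4 and 13 reads of them.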
